A study of Homo sapiens with 6 samples.

Results

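The syndecans SDC1, SDC2, SDC3 and SDC4 and the glypicans GPC1, GPC2, GPC3, GPC4, GPC5 and GPC6 were followed in U87, an established human glioblastoma cell line labelled wild type. These 10 genes were taken by name as the full human families of membrane heparan sulfate proteoglycans, out of 25680 gene symbols in each library. All cells had received 500 nM of the rhodamine-tagged cyclic peptide EPP6 for 1 h before they were detached and sorted on rhodamine fluorescence. The brightest 30% (high uptake) and the dimmest 30% (low uptake) were each sequenced as 3 libraries, numbered 2, 3 and 4 in the labels, and the series is titled as a search for proteins with a role in cyclic peptide uptake. No library of cells without peptide was analysed here, and U87 is a single cultured line, so each value compares brighter with dimmer cells of that line. In such bulk libraries, fewer cells of a type and less RNA per cell cannot be told apart.

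Syndecans and glypicans are core proteins that carry long, strongly negative heparan sulfate chains at the cell surface. A syndecan crosses the membrane and ends in a short tail that binds scaffold proteins and protein kinase C, whereas a glypican is held in the outer leaflet by a lipid anchor of the glycosylphosphatidylinositol (GPI) type. Their chains hold growth factors near receptors, and they are known to bind many basic peptides and carry them into cells by endocytosis.

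GPC6 and SDC2 were the 2 members that rose in high uptake, 1.55-fold and 1.42-fold. The abundant members SDC4, GPC1 and SDC1 did not pass the test. The 3 high-uptake values of SDC1 all lay above its 3 low-uptake values, as in 13.0% of all tested genes. SDC3, GPC2 and GPC5 were scarce, and GPC3 and GPC4 were at or near 0. Among genes that build the chains, the xylosyltransferase XYLT1, the xylose phosphatase PXYLP1 and the sulfate donor synthase PAPSS2 rose.

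Total counts ran from 13712263 to 40742857 per library, lowest in high replicate 3, and 14598 genes had enough counts to be tested. Nothing in the labels says that the libraries came from separate cultures, so p-values measure the spread between these libraries, which may be technical. Vimentin (VIM) and CD44 were abundant, with mean levels of 10534 and 1954 CPM among the high-uptake libraries and 10268 and 1753 CPM among the low-uptake ones, where CPM is the read count per 1000000 reads, scaled by TMM. Of the other glioma markers, EGFR had means of 127 CPM (high uptake) and 125 CPM (low uptake), and NES 19.9 and 22.5 CPM. The astrocyte and glioma markers GFAP, S100B, SOX2 and OLIG2 were at or below a mean of 1.39 CPM in each group. Of the fibroblast markers PDGFRB, COL1A1, LUM and DCN, the 3 that were tested all rose, LUM (adjusted p = 0.0327, edgeR) less firmly: it no longer passed when high 2 (0.0930), high 4 (0.0511), low 2 (0.0512), low 4 (0.0676) or both replicates 2 (0.0630, log2 0.43 against 0.85) were dropped. The summed level of the 4 ran between 783 and 959.7 CPM for the high-uptake libraries, against 359 to 503 CPM for the low-uptake ones. Most of it was COL1A1, with means of 819 CPM (high uptake) and 416 CPM (low uptake). DCN was scarce, with means of 0.438 and 0.159 CPM. None of the 4 was at 0 in every library, and their part in the results below was not tested. Of 4 neuronal markers SNAP25 rose, with means of 25.2 CPM (high uptake) and 14.7 CPM (low uptake). The 4 summed to 290.0 to 332 CPM (high uptake) and 234 to 287 CPM (low uptake). Most of that was TUBB3 (means of 279 and 250.1 CPM), which was not called. RBFOX3 and SYP were at or below a mean of 0.957 CPM in each group and were not called. The part of these markers was not tested either. Endothelial markers summed to 4.75 to 5.12 CPM (high uptake) and 3.14 to 4.01 CPM (low uptake), with none called, and immune markers to 258 to 284 CPM (high uptake) and 234 to 283 CPM (low uptake), with AIF1 at 0. Epithelial markers summed to 2.05 to 3.04 CPM (high uptake) and 2.10 to 2.68 CPM (low uptake).

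RefSeq promoter windows (build GRCh38.p14, 250 bases before to 50 after the gene start) were used for 8 of the 10 genes, without GPC3 and SDC2. Those of GPC6, the member with the largest rise, of GPC1, the dominant glypican, and of SDC4 are shown here. SDC4 was the highest syndecan per unit of gene length (TPM), whereas SDC1 was higher by CPM (means of 192 and 170.1 for SDC1 and SDC4 over all 6 libraries). These windows were chosen because the rise of GPC6 is set against the levels of GPC1 and SDC4 below. Capitals mark the GC box GGGCGG and the motif TATAA, searched on both strands. The windows lie at chr13:93226557-93226856 on the plus strand, chr2:240435413-240435712 on the plus strand and chr20:45348375-45348674 on the minus strand, and each is written in the direction of its gene.
GPC6: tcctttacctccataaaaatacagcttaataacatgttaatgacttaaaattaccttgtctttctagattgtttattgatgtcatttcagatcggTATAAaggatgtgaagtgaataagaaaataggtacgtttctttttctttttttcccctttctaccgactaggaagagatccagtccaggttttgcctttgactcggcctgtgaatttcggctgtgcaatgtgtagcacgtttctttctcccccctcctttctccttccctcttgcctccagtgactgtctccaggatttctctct
GPC1: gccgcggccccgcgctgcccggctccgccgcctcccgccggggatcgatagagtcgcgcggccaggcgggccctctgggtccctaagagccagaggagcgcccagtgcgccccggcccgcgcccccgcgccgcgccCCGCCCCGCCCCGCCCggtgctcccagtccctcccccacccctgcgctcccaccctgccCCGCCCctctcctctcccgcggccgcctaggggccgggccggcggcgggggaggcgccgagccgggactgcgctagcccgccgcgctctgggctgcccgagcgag
SDC4: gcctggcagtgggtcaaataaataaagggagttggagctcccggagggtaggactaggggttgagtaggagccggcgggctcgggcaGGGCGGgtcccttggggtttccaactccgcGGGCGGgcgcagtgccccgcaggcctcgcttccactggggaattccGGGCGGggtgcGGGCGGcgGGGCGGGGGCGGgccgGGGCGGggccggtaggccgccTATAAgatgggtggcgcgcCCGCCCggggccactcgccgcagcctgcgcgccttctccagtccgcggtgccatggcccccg
The GPC6 window held 40.0% G and C, with 11.2% of 35116 windows lower, no GC box and a TATAA that began 155 bases before the gene start. The GPC1 window held 83.3% G and C and 4 GC boxes on either strand, and the SDC4 window held 74.0%, 8 GC boxes and a TATAA 31 bases before the start. A GC box occurred in 45.0% and a TATAA in 20.4% of all windows of that length. Such matches describe the letters and are not evidence of binding.

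Per unit of gene length, the members fell into 3 tiers, by the authors' deposited TPM values. SDC4 (158 ± 14.0 TPM over all 6 libraries, SD), SDC1 (138 ± 17.7 TPM) and GPC1 (132 ± 17.3 TPM) formed the first. SDC4 was the highest in every library, and the means of SDC1 and GPC1 differed by less than their SD. SDC2 (36.0 ± 8.69 TPM) and GPC6 (22.5 ± 6.21 TPM) formed the second. GPC5 (1.32 ± 0.164 TPM), SDC3 (0.728 ± 0.172 TPM) and GPC2 (0.536 ± 0.207 TPM) formed the third. SDC2, GPC6 and GPC5 also kept their rank in all 6 libraries, at places 4, 5 and 6. The order of SDC1 and GPC1 was not the same in both groups: SDC1 stood above GPC1 in the 3 high-uptake libraries, with ratios of 1.45, 1.12 and 1.12, and below it in the 3 low-uptake libraries, with ratios of 0.952, 0.951 and 0.824.

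**Figure D1:**
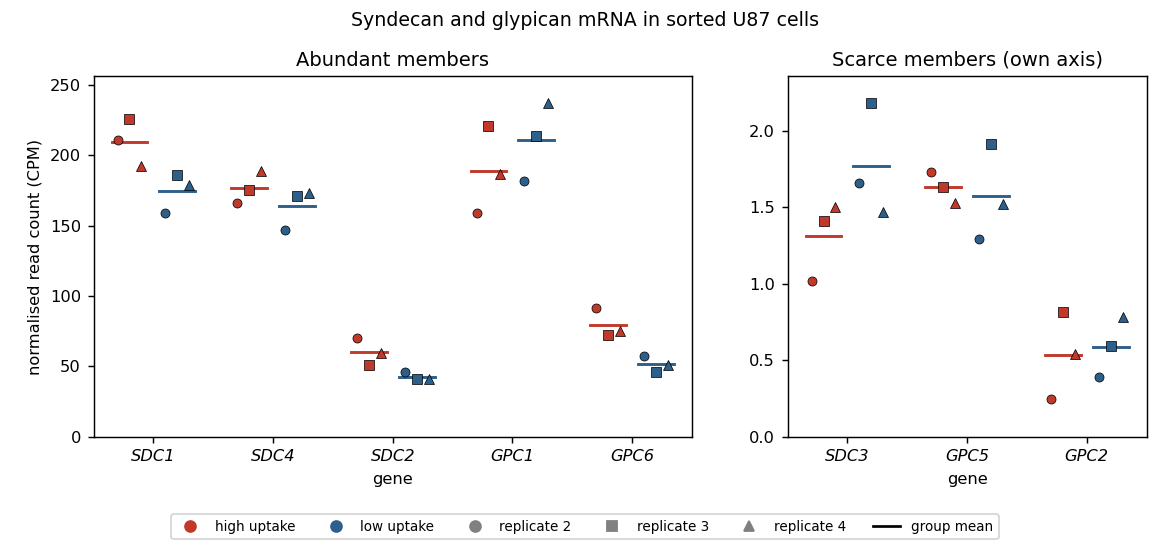
Normalised read counts (CPM) of the 8 tested members in each library, with high uptake in red left of low uptake in blue, marker shape giving the replicate number and bars the group means; scarce members have an axis of their own. The 3 red GPC6 points (72.0 to 91.8 CPM) and the 3 red SDC2 points (50.8 to 70.5 CPM) lie above their blue points (46.3 to 57.4 and 40.8 to 46.0 CPM), while those of SDC4 and GPC1 overlap.

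GPC6, a glypican that is lost in a human disorder of limb growth, omodysplasia, stood at 91.8, 72.0 and 75.4 CPM in high replicates 2, 3 and 4, against 57.4, 46.3 and 50.8 CPM in low replicates 2, 3 and 4. The lowest high-uptake library exceeded the highest low-uptake library. The means were 79.7 ± 10.6 (high uptake) and 51.5 ± 5.59 CPM (low uptake; SD, n = 3 each), and the log2 fold change was 0.63 (SE 0.113, edgeR quasi-likelihood test with Benjamini-Hochberg adjustment, adjusted p = 0.0110). A larger log2 fold change was seen for 354 of the 14598 tested genes. Without low replicate 4, the least deep low-uptake library, the log2 fold change was 0.62 and the adjusted p was 0.0519.

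SDC2, the syndecan typical of mesenchymal cells and fibroblasts, stood at 70.5, 50.8 and 59.8 CPM in high replicates 2, 3 and 4, against 46.0, 40.8 and 41.3 CPM in low replicates 2, 3 and 4. The groups did not overlap, although high replicate 3 lay only a little above low replicate 2. The means were 60.4 ± 9.86 (high uptake) and 42.7 ± 2.85 CPM (low uptake; SD, n = 3 each; log2 fold change 0.50, SE 0.117, edgeR adjusted p = 0.0353). High uptake varied more, with a coefficient of variation of 16.3% against 6.67% in low uptake. SDC2 no longer passed when high replicate 2 (log2 0.38, adjusted p = 0.0937), high 4 (0.0931), low 3 (0.120) or low 4 (0.141) was dropped, or with scaling by library totals alone (0.0516).

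SDC1, the syndecan best known from epithelia and plasma cells, stood at 211, 226 and 192 CPM in high replicates 2, 3 and 4, against 159, 186 and 179 CPM in low replicates 2, 3 and 4. The groups did not overlap, with high uptake above as in 13.0% of all tested genes. The difference did not pass (log2 fold change 0.26, SE 0.0892, edgeR adjusted p = 0.133). SDC4, the widely expressed syndecan of focal adhesions, stood at 166, 175 and 189 CPM in the high-uptake libraries and 147, 171 and 173 CPM in the low-uptake libraries, which overlapped (log2 0.11). SDC3, the syndecan of neurons, had counts of 41, 19 and 50 for high replicates 2, 3 and 4, against 64, 48 and 30 for the low-uptake ones. Its log2 fold change of -0.46 had an SE of 0.247 and did not pass (edgeR adjusted p = 0.362).

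GPC1, a glypican that acts as a co-receptor for fibroblast growth factors and is common in gliomas, stood at 159, 221 and 187 CPM in high replicates 2, 3 and 4, against 182, 214 and 237 CPM in low replicates 2, 3 and 4. The groups overlapped across most of their range, and the log2 fold change was -0.16 (SE 0.124, edgeR adjusted p = 0.541). GPC5 gave 70, 22 and 51 counts in the high-uptake libraries and 50, 42 and 31 counts in the low-uptake libraries (log2 0.08, SE 0.221). GPC5 is the protein-coding neighbour of GPC6 on chromosome 13, and its mean level over the 6 libraries was 1.32 TPM, against 22.5 TPM for GPC6. GPC2, a glypican of developing neurons, had 10 to 18 counts per library (log2 -0.25, SE 0.456), and its direction turned when high replicate 2 (0.18) or low replicate 4 (0.01) was left out. GPC5 turned when low replicate 2 (-0.07) or both replicates 2 (-0.14) were dropped.

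GPC3 and GPC4, adjacent on chromosome X, were not tested. GPC3, a marker of liver cancer, had 0 counts in all 6 libraries, which allows up to 3 counts per library or 0.0743 to 0.223 CPM, counting error only. GPC4 had 2 counts in low replicate 2 and 0 counts in the other libraries. Antisense genes at the chromosome 13 pair had few reads: GPC6-AS1 and GPC6-AS2 had 2 and 3 counts in all, and GPC5-AS1 and GPC5-AS2 had 0. The pseudogene SDC4P also had 0 counts. The opposite-strand gene AL354811.1 shares 476 of 6468 exon bases with GPC6 in GENCODE and was not analysed here, and the strand setting of the counting is unknown.

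Of the 10 members, 8 were tested, and 2 of them rose while none fell, against 4.29% of all tested genes called in either direction (3.03% higher and 1.26% lower). No member was lower at an unadjusted p under 0.05, and DESeq2 and limma-voom also called 2 higher and 0 lower. In 3 of the 8 the groups did not overlap, against 24.4% of all tested genes (13.0% with high uptake above and 11.4% below). The median log2 fold change of the 8 was 0.09, and that of all tested genes was -0.00. The authors' deposited list of 2305 gene symbols, which carries no values, contained GPC6, SDC2 and SDC1, and 15.8% of the tested genes. The list belongs to this same series, so it is not separate support for these members. Its name gives a p of 0.05 and does not say whether that was adjusted.

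Base composition differed among the members, at 41.6% G and C in the transcript for GPC6 and 43.9% for SDC2, against 60.1% for SDC1 and 66.7% for GPC1. After a correction of each library for its dependence on GC content, the log2 fold changes were 0.63 for GPC6, 0.50 for SDC2, 0.26 for SDC1 and -0.17 for GPC1, so they moved by no more than 0.01. Their errors became smaller, and 4 of the 8 passed edgeR's test, with SDC1 (adjusted p = 0.00451) added on the higher side and GPC1 (adjusted p = 0.0416) on the lower. In that fit 20.2% of 13549 genes were called (11.3% higher, 8.89% lower).

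**Figure D2:**
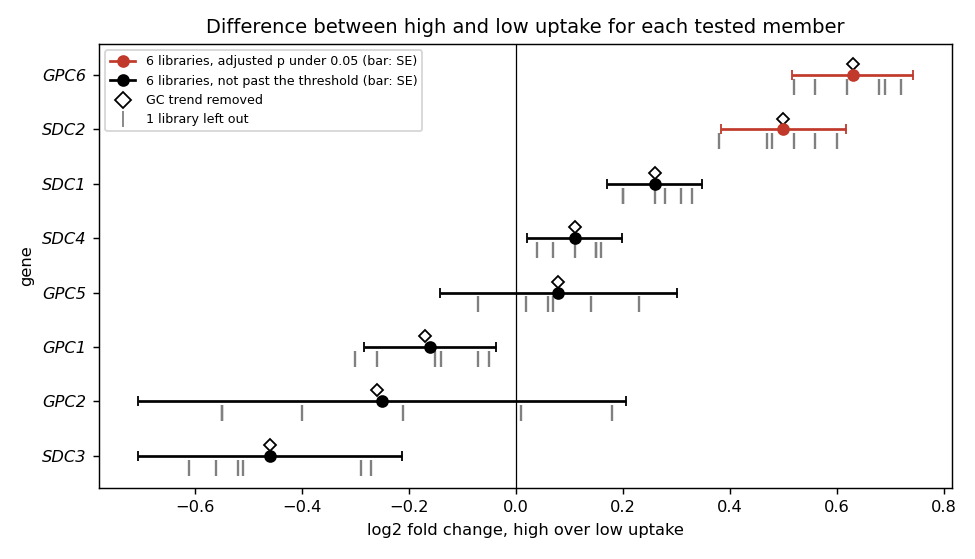
Log2 fold change of each tested member, high over low uptake, with its SE (circles and bars, red for adjusted p under 0.05), the value with the GC trend removed (diamonds) and the 6 values with 1 library left out (ticks). GPC6 (0.52 to 0.72) and SDC2 (0.38 to 0.60) stay above 0 whichever library is left out, GPC1 stays below 0, and GPC2 and GPC5 lie on both sides.

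The 4 syndecans summed to 359.8, 361 and 366 TPM in high replicates 2, 3 and 4, against 285, 316 and 313 TPM in low replicates 2, 3 and 4, a mean 19.0% higher. The 6 glypicans summed to 139.8, 172 and 155 TPM in the high-uptake libraries and 142, 155 and 173 TPM in the low-uptake libraries, with means of 156 ± 16.1 and 157 ± 15.5 TPM (SD, n = 3 each). The syndecan sums did not overlap and the glypican sums did. Among single genes, the groups did not overlap in CPM for 24.4% of all tested genes. By mean TPM, high minus low uptake, SDC1 differed by 28.6, SDC4 by 16.2, SDC2 by 13.2 and SDC3 by -0.199. Only SDC2 of these was called, so the larger parts of the syndecan difference came from members that did not pass. No p is given for these sums, since the members were chosen with earlier results of these data known.

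Within that pool, GPC1 made up 21.3%, 27.3% and 24.3% of the summed TPM of the 10 genes in high replicates 2, 3 and 4, against 28.3%, 29.3% and 31.6% in low replicates 2, 3 and 4, with no overlap. GPC6 made up 6.36%, 4.61% and 5.08% in the high-uptake libraries and 4.63%, 3.29% and 3.51% in the low-uptake libraries, where high replicate 3 lay just below low replicate 2. Among glypicans alone, GPC6 had a mean share of 18.0% ± 4.31 in high uptake and 11.2% ± 2.31 in low uptake (SD, n = 3 each). SDC4 held 32.1% ± 2.20 of the pool in high uptake and 32.5% ± 0.481 in low uptake, and SDC1 held 29.5% ± 1.93 and 26.9% ± 0.892. SDC2 held 8.27% ± 1.66 in high uptake and 6.42% ± 0.975 in low uptake, with overlap between libraries. The share of the scarce SDC3 was 0.0975% to 0.140% in high uptake and 0.141% to 0.215% in low uptake.

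The ratio of GPC6 to GPC1 TPM was 0.299, 0.169 and 0.209 in high replicates 2, 3 and 4, against 0.164, 0.112 and 0.111 in low replicates 2, 3 and 4. The means differed by 1.75-fold without overlap, which gives p = 0.1 in an exact two-sided permutation test, the smallest that 3 against 3 libraries allow (0.200 after Benjamini-Hochberg adjustment over 6 ratios, chosen after the values were seen). The ratio of SDC1 to GPC1 also separated the groups (log2 difference 0.43, same p). The ratios of SDC2 to SDC1, SDC2 to SDC4 and SDC1 to SDC4 overlapped between groups. The ratio of GPC6 to SDC2 was 0.639, 0.695 and 0.619 in high uptake and 0.613, 0.557 and 0.603 in low uptake, which also did not overlap, by a narrow margin (log2 difference 0.14, same p).

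**Figure D3:**
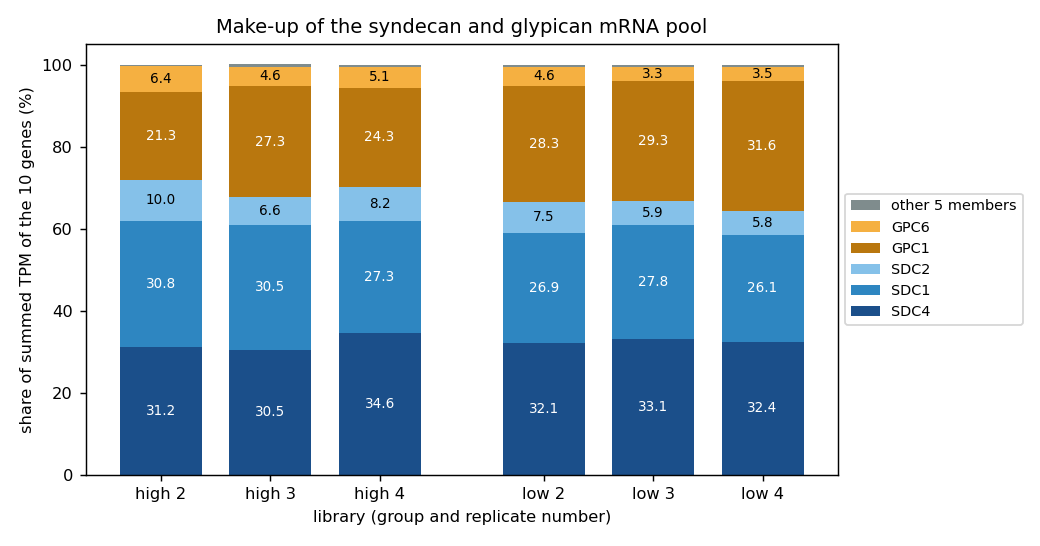
Share of each member in the summed TPM of the 10 genes, in percent, for each library, high uptake left of low uptake. GPC1 takes 21.3% to 27.3% of the pool in high uptake and 28.3% to 31.6% in low uptake, while SDC4 stays between 30.5% and 34.6% in all 6 libraries.

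Other genes whose level followed GPC6 or SDC2 across the 6 libraries were sought among 9787 genes of at least 10 CPM, by Pearson correlation of log2 CPM, given as a description. With GPC6 the correlation was 0.998 for DNAL1 and 0.997 for TTC3, and the lowest was that of MAP3K14 (-0.996). With SDC2 the highest were the kinase gene DYRK1A (0.996), the integrin subunit gene ITGB1 (0.995) and the mitophagy gene BNIP3L (0.995), and the lowest was AARS2 (-0.997). The 6 points share library depth and uptake group, and no test was made.

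The chains themselves are started, extended and sulfated in the Golgi, and 30 of 36 genes for these steps and their donors were tested. Without EXTL1, described below, 3 of 29 rose and 0 fell, or 10.3% against 4.29% of all tested genes, with a median log2 fold change of 0.10. With the GC trend removed, 10 of the 29 passed as higher and 2 as lower, or 41.4% against 20.2% of all genes in that fit. Of 7 genes for the linker sugars, 2 rose. XYLT1, which adds the first xylose to the core protein, stood at 139, 142 and 135 CPM in high replicates 2, 3 and 4, against 101, 103 and 106 CPM in low replicates 2, 3 and 4 (log2 0.42, SE 0.0740, edgeR adjusted p = 0.00987; 0.0519 without low replicate 4). PXYLP1, which removes the phosphate placed on that xylose by FAM20B, stood at 9.43, 7.94 and 6.24 CPM in the high-uptake libraries and 4.32, 5.14 and 3.42 CPM in the low-uptake libraries (log2 0.87). Its adjusted p of 0.0244 became 0.0794 without high replicate 2 and 0.0969 without low replicate 4. The linker is shared with chondroitin sulfate, so neither gene acts on heparan sulfate alone.

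Of 5 polymerase genes, EXTL1, a glycosyltransferase related to EXT1, was scarce, with counts of 25, 13 and 15 for high replicates 2, 3 and 4, against 1 count for each low-uptake library. It had enough counts to be tested only through the high-uptake libraries, so its difference is given as counts and it is left out of the numbers of genes that rose. EXT1 and EXT2, whose products together form the chain polymerase, had log2 fold changes of 0.06 and 0.19 and did not pass. Among 16 genes that trim and sulfate the chain, 10 were tested and none passed edgeR's test (1 at an unadjusted p under 0.05, and 0 in DESeq2 and limma-voom). The smallest p was that of the 6-O-sulfotransferase HS6ST1 (log2 0.37, edgeR adjusted p = 0.148). NDST4, HS6ST2, HS3ST4 and HS3ST6 had no count in any library. Of 8 genes for sulfate and sugar donors, PAPSS2, which makes the sulfate donor PAPS, rose: 37.7, 33.0 and 32.1 CPM in the high-uptake libraries against 20.4, 20.5 and 22.3 CPM in the low-uptake libraries (log2 0.71, SE 0.0977, edgeR adjusted p = 0.00284). Its sister gene PAPSS1 had a log2 fold change of -0.03. Of the editing enzymes SULF2 and HPSE, neither passed (1 at an unadjusted p under 0.05, and 0 in DESeq2 and limma-voom). HPSE, the heparanase that cuts the chains, averaged 5.98 ± 0.712 CPM (high uptake) and 7.92 ± 0.769 CPM (low uptake; SD, n = 3 each; log2 -0.39, edgeR adjusted p = 0.145).

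Of 7 other core proteins that can carry heparan sulfate, HSPG2 (perlecan, log2 0.76), NRP1 (neuropilin, 0.36) and SRGN (serglycin, 0.46) rose and 4 did not pass, where 3.03% of all tested genes were called higher. NRP1 and SRGN no longer passed when high 2, high 4, low 3 or low 4 was dropped, and SRGN also when low 2 was (adjusted p 0.0517 to 0.156 for NRP1, 0.0789 to 0.128 for SRGN). Without both replicates 2, SRGN had a log2 fold change of 0.31 (edgeR adjusted p = 0.104). SRGN also lost its call in edgeR with upper quartile scaling (0.0535), library totals alone (0.0612) or a filter of at least 50 counts in 3 libraries (0.0510). It kept its call in DESeq2 and limma-voom. HSPG2 lost its call with the trend with gene length removed (0.0528). AGRN, the secreted core protein agrin, had a log2 fold change of -0.07.

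Of 16 genes that shed or cleave the cores, 10 were tested, and 1 rose: MMP2, gelatinase A, at 3074, 3374 and 2971 CPM in high replicates 2, 3 and 4, against 2119, 2582 and 2581 CPM in low replicates 2, 3 and 4. The groups did not overlap (log2 0.37, SE 0.0894, edgeR adjusted p = 0.0414), but leaving out any 1 library gave an adjusted p of 0.0628 to 0.0984. The syndecan sheddase gene ADAM10 (log2 0.36, edgeR adjusted p = 0.0788) did not pass, though its groups did not overlap, as in 24.4% of all tested genes. It passed edgeR's test with the GC trend removed (adjusted p = 4.06e-04), a fit that called 20.2% of genes. ADAM17 (log2 0.03) did not pass. Of the genes that shed or cleave, DESeq2 called 3 and limma-voom 1. None of 29 genes of GPI anchor synthesis and remodelling passed (4 at an unadjusted p under 0.05, and 0 in DESeq2 and limma-voom), with a median log2 fold change of 0.01. In that list the smallest p belonged to PGAP2 (log2 -0.28, edgeR adjusted p = 0.156).

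Among 12 partners of the syndecan tail, PRKCA, the kinase that binds the SDC4 tail, rose: 532 ± 32.8 CPM (high uptake) against 407 ± 14.1 CPM (low uptake; SD, n = 3 each; log2 0.39, edgeR adjusted p = 0.0143). It lost its call without high replicate 2 (0.0544), low replicate 3 (0.0688) or low replicate 4 (0.0900). SDCBP, the scaffold protein syntenin, had a log2 fold change of -0.04. Among 15 tested heparin-binding ligands 1 rose, WNT5A, at 497, 396 and 459 CPM in the high-uptake libraries and 281, 295 and 329 CPM in the low-uptake libraries (log2 0.58, SE 0.0952, edgeR adjusted p = 0.00684), whereas FGF2 had a log2 fold change of 0.01. Among 7 tested receptors that use heparan sulfate 1 rose, ROBO1, the receptor for SLIT proteins (113 ± 2.80 CPM, high uptake, and 81.2 ± 2.80 CPM, low uptake; SD, n = 3 each; log2 0.48, edgeR adjusted p = 0.00588), and FGFR1 had -0.05. Across the 11 lists and without EXTL1, 10 of 111 tested genes rose and 0 fell, or 9.01% against 4.29% of all tested genes, with a median log2 fold change of 0.06. With the GC trend removed, 26 passed as higher and 6 as lower, or 28.8% against 20.2% of all genes in that fit.

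**Figure D4:**
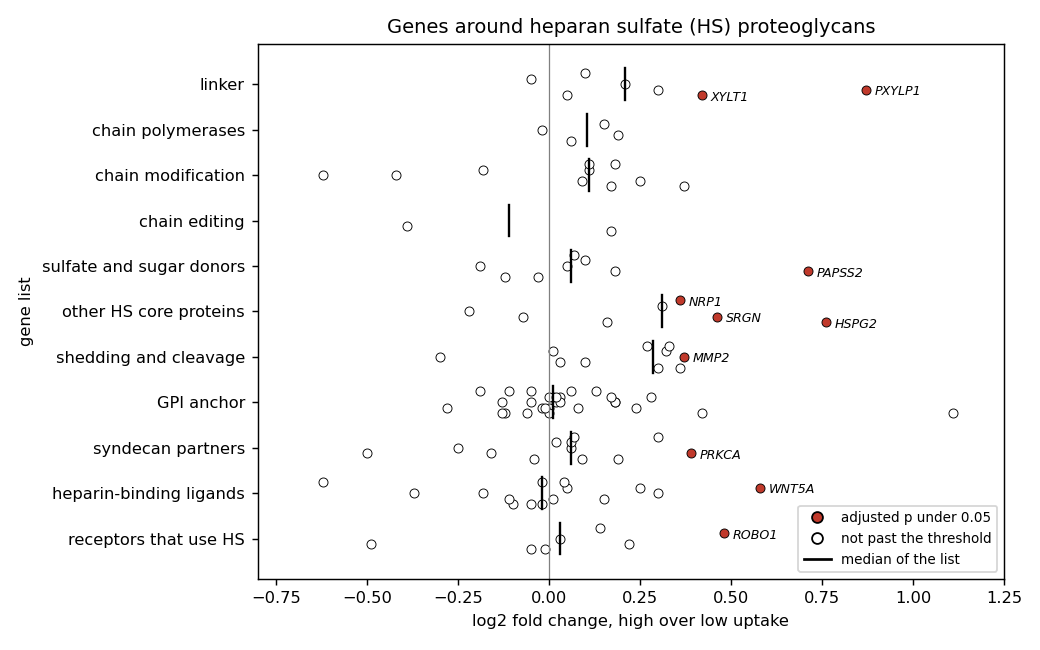
Log2 fold change, high over low uptake, of each tested gene in 11 lists around heparan sulfate proteoglycans, with red points for adjusted p under 0.05 and bars for the median of each list; EXTL1, with 1 count in each low-uptake library, is left out of the points and medians. All 10 red points lie to the right of 0, from 0.36 for NRP1 to 0.87 for PXYLP1, while the GPI anchor genes centre on 0.01.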

How the data were processed

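RNA-seq of 6 libraries was analysed, 3 of high and 3 of low uptake, grouped by the sample titles. Libraries were directional and made from total RNA, per the labels' protocols. Build hg19 and the tools fastp, STAR and featureCounts are listed, with no version, in the submitters' processing notes; annotation and strand setting were not given there. The authors deposited, per the file headers, raw counts for each gene symbol beside FPKM and TPM. Counts were tested, deposited TPM gave levels and shares, and deposited FPKM gave the authors' gene lengths. The authors' deposited list of symbols has no values.

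Genes were kept by filterByExpr (minimum count 10, minimum total 15) and scaled by TMM. The main test was the quasi-likelihood F-test of edgeR 4.0.16 in R 4.3.3, robust, two-sided, without covariates, with Benjamini-Hochberg adjustment over 14598 genes and a threshold of 0.05. The SE is the log2 fold change divided by the square root of F. GC content came from the GENCODE transcript (release 29, GRCh38) closest in length to the authors' model, for 13549 tested genes, and trends were fitted by loess with a span of 0.3. DESeq2 1.42.0 and limma 3.58.1 were alternatives. The tests were also run on simulated counts, and the outcome is not reported here.

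The members and gene lists were chosen with earlier results of these data known. All members were named, with the genes of each list past the threshold (or the 1 of smallest p) and, for each called member, the 3 genes of highest correlation and the 1 of lowest; other genes were chosen after their values were seen. A gene that this rule names is not reported here. Alternatives covered scaling, filters, trends, a replicate block and libraries left out.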

Additional observations from a re-analysis of the deposited data

How the results depend on the processing

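GPC6, SDC2, SDC1, SDC4, GPC1 and SDC3 kept their direction under every alternative tried; GPC6 kept its call in 18 of 19 and SDC2 in 14 of 19. GPC2 turned without high replicate 2 (0.18) or low replicate 4 (0.01), and GPC5 without low replicate 2 (-0.07) or with both libraries numbered 2 left out (-0.14), in log2 units; with 1 library left out they ranged from -0.55 to 0.18 and from -0.07 to 0.23. Members called higher numbered 2 as tested, 1 with library totals alone, 0 to 2 with 1 library left out and 4 with the replicate number as a block and the GC trend removed. No member was called lower as tested (0), and 1 was with the GC trend removed, alone or with the block, and 1 with the block and the length trend removed, in each case GPC1. Genes called numbered 626 as tested (442 higher, 184 lower; 1537 and 1205 with the GC trend removed), 232 to 738 with 1 library left out, 2742 with the GC trend removed, 3176 with the replicate number as a block, 3940 with block and GC trend and 2757 with block and length trend. The cause was not tested. Deviations of same-numbered libraries from their group means correlated at 0.452, 0.304 and 0.087 for numbers 2, 3 and 4. Each high-uptake library correlated best with the low-uptake library of its number, whereas low replicate 4 correlated best with high replicate 3 (0.216). The labels do not say whether equal numbers mark pairs, and pairing was not tested. The share of GPC6 in the pool was 1.54 percentage points higher in high uptake by TPM and 3.1 by CPM.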
